A study of Mus musculus with 12 samples.

Results

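The effect of combined Tet2 loss and Flt3-ITD on granulocyte-macrophage progenitors (GMP) was read from 6 of the 12 libraries of the series, 3 of Tet2-/-Flt3ITD GMP (T2F3 GMP 1, 2 and 3) and 3 of wild-type GMP (WT GMP 1, 2 and 3), which were chosen by genotype and sorted population alone. All donors were mice on a C57BL/6 background with a stated age of 0.35 years, and no further treatment is named in the labels. GMP were sorted from flushed femur and tibia marrow after lineage depletion, as lineage-negative, c-Kit-positive, Sca-1-negative cells that carried CD34 and the Fcγ receptor. The other 6 libraries are of LSK cells of the same genotypes, a fraction that holds the stem cells and early multipotent progenitors. Below, they enter the gene filter, the scaling and the estimate of the spread. They are also used to ask where the effect in GMP differs from that in LSK. The labels do not state which allele or driver removed Tet2, whether 1 or both Flt3 alleles carried the duplication, or whether marrow was pooled. With no group that carries either lesion alone, the contribution of each cannot be told apart.

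Tet2 encodes an enzyme that oxidises methylated cytosine in DNA, a step towards its removal. Flt3 encodes the receptor tyrosine kinase for FLT3 ligand, and an internal tandem duplication (ITD) in its juxtamembrane part makes it signal without ligand, with strong activation of the transcription factor STAT5. Both are recurrent lesions of acute myeloid leukaemia. GMP normally give rise to neutrophils and monocytes, and a sorted GMP gate also holds precursors of mast cells, basophils and eosinophils.

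Levels are in CPM, counts relative to the library total after scaling by TMM, and a gene was called when its Benjamini-Hochberg adjusted p from the quasi-likelihood F-test of edgeR was under 0.05. Of 16042 genes tested, 183 (1.14%) were called in T2F3 against WT GMP, 109 higher (0.679%) and 74 lower (0.461%), and 2176 had an unadjusted p under 0.05. The median log2 change of all genes tested was 0.02. The genes that rose did so from low levels in many cases. The WT mean was under 1 CPM for 59 of the 109, and for 19 of them no WT GMP library held a count. The 74 that fell had a median log2 change of -1.95, against 4.55 for those that rose. The 3 libraries of each genotype did not overlap for any of the 183 called genes, and this was so for 21.7% of all genes tested. T2F3 GMP 2 was the highest of the mutant libraries for 68 of the 109 genes that rose, T2F3 GMP 1 for 18 and T2F3 GMP 3 for 23.

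Depth was 17409167 to 23536258 counts per GMP library. WT GMP 1 stood apart. It had counts in 71.1% of table entries against 84.0% to 85.0% in the other WT and 80.2% to 89.5% in the T2F3 libraries, its share of small noncoding RNA was 19.9% against 7.90% to 17.8%, and its log2 CPM correlated with WT GMP 2 and 3 at 0.94 and 0.93 across genes, against 0.97 between those libraries. Each GMP library comes with an LSK library whose title points to the same animal, and the deviations of the 6 such pairs from their group means correlated at 0.11 to 0.48. A limma-voom fit with the animal as a random effect (correlation within an animal 0.26), called the animal fit below, called 57 genes higher and 82 lower, of which 99 are among the 183. The animal fit differs from the main fit in the tool as well as in the animal term. A limma-voom fit with neither animal term nor quality weights was not run, so a lost call cannot be assigned to the animal term. Where the animal fit ended a call or moved the count of a list by more than 1.5 times, its adjusted p or count stands beside the result. Limma-voom named alone below is the fit with quality weights and no animal term. With the letters of the library code as a term, 21 were higher and 18 lower, 38 of them among the 183, and the lists below then held 3 calls for STAT5 targets, 3 for mast cell, basophil and eosinophil genes, 3 for adhesion and surface genes, 1 each for erythroid and dendritic cell genes and 0 for MHC class II genes and cytokine receptors, with Flt3 and Kit not called (adjusted p = 0.125 and 0.147). With the code, Ms4a2, Igf1r, Grb10, Csf3r, Fscn1, Itgb7, Mcpt8, Casp1 and Csf1 were not called either (adjusted p of the F-test from 0.0585 to 0.199). The animal fit kept the calls of these genes. Single libraries bore on the number of calls. Without WT GMP 1 there were 48 higher and 51 lower genes, without WT GMP 2 26 and 35, without T2F3 GMP 1 55 and 25, without T2F3 GMP 2 31 and 24, and without T2F3 GMP 3 65 and 38. LSK libraries enter through the gene filter, the scaling and the shared spread. Leaving them out also moved the higher count to 71 without WT LSK 3 and 70 without T2F3 LSK 2, and the lower count to 49 without WT LSK 2. In the 12 fits that each left out 1 library, 38 genes were called every time, 19 higher and 19 lower, and no called gene changed sign under any of the 26 alternatives. Of the 183, 19 genes were called under all 26, 10 higher (Ccn3, Cish, Cp, Enah, Epb41l4b, Eps8, Gbp7, Ifitm1, Pim1 and Socs2) and 9 lower (among them Chdh, Ets1, Gata2, Hdc, Itga2b, Prss34, Slc18a2 and Spns2).

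**Figure D1:**
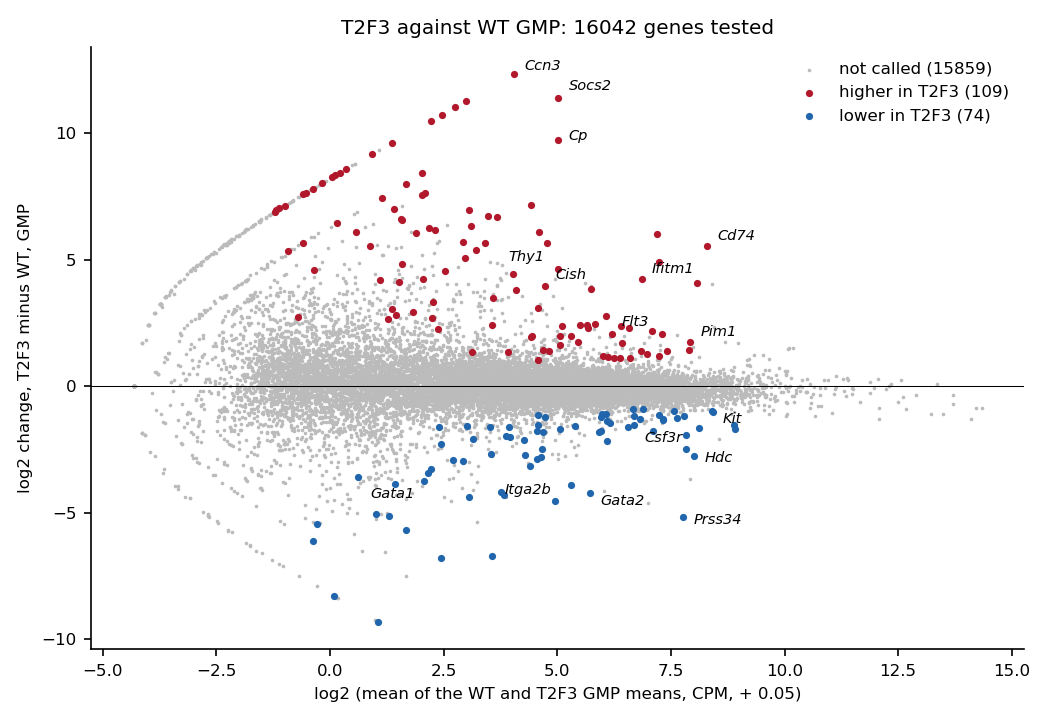
Fitted log2 change (T2F3 minus WT, GMP) of each of the 16042 genes tested against the log2 of its mean level in CPM plus an offset; red and blue points are the 109 higher and 74 lower genes called and grey points the rest. The largest rises start from WT levels at or near 0, where the fitted change depends on the prior count, while Prss34, Hdc and Kit fell from higher levels.

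The targeted genes and the sort markers were read first. Tet2 transcript was at 106.5, 137.5 and 112.1 CPM in WT GMP 1, 2 and 3 and at 96.3, 88.8 and 66.1 CPM in the T2F3 libraries, a log2 change of -0.50 ± 0.28 (SE) that did not pass (adjusted p = 0.48). The libraries did not overlap, but the transcript was not lost, and gene counts do not show which exons the reads cover. Flt3 rose from 20.8, 14.4 and 50.7 CPM to 115.7, 166 and 72.3 CPM (4.12-fold, adjusted p = 0.0418), with WT GMP 3 the highest of the WT and T2F3 GMP 3 the lowest of the mutant libraries. Without WT GMP 3 the fold was 6.71. That call was lost without WT GMP 1 or 2, T2F3 GMP 1 or 2, WT LSK 2 or 3 or T2F3 LSK 1 or 2, with an adjusted p of 0.0573 to 0.183. Kit, the stem cell factor receptor used in the gate, fell from 395.5, 402.8 and 554 CPM to 237.3, 217 and 230.7 CPM (1.97-fold, adjusted p = 0.0431). Kit was called in only 1 of the 12 fits with a library left out, the one without WT LSK 1, and its adjusted p was 0.0506 to 0.206 in the others. Fcgr3, which encodes an Fcγ receptor of the gate, was at 159.9, 115.1 and 94.4 CPM in WT and 40.4, 24.3 and 75.8 CPM in T2F3 (adjusted p = 0.15). Cd34 was at 254.3 to 325 CPM in WT and 244.7 to 307.9 CPM in T2F3 (adjusted p = 0.912). Ly6a, which encodes Sca-1, was at 1.52 to 3.57 CPM in WT GMP and 2.71 to 6.46 CPM in T2F3 GMP, against 17.9 to 26.8 CPM in WT LSK, although the protocol in the labels writes both gates as Sca-1-negative (T2F3 against WT in GMP, adjusted p = 0.529).

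Socs2, Cish and Pim1, genes induced by STAT5, rose in T2F3 GMP under every alternative. STAT5 is phosphorylated below cytokine receptors and FLT3-ITD, and it drives genes that feed back on the same pathway. Of 28 STAT5 target and cytokine feedback genes tested, 3 rose and 0 fell, with a median log2 change of -0.02 over the 28. The 3 were called in every fit with a library left out. For the 0 that fell, DESeq2 called 1 and limma-voom 2. In either direction, 9 of the 28 had an unadjusted p under 0.05, against 2176 of the 16042 genes tested. For this and each list below, the shares called over all genes tested were 0.679% higher and 0.461% lower. The lists were drawn up with earlier results of these data known. Their counts, medians and ranks are therefore no separate support for a change in such genes. Socs2, a suppressor of cytokine signalling, was at 0, 0 and 0.0581 CPM in WT (1 count in all, in WT GMP 3) and at 54.4, 90.7 and 49.7 CPM in T2F3. The ratio was 3817 with a 95% counting interval of 685 to 150800, and the adjusted p was 5.43e-07. Cish, a feedback inhibitor of the same family, rose from 4.70, 2.38 and 2.44 CPM to 43.5, 63.5 and 42.4 CPM (15.7-fold, adjusted p = 0.000266). Pim1, a survival kinase, rose from 103.6, 112.3 and 116.2 CPM to 351.3, 451.6 and 312.3 CPM (3.36-fold, adjusted p = 0.00121). All T2F3 libraries exceeded all WT libraries for each of the 3, and the lowest mutant library of Pim1 was above every WT value by more than the whole WT range. Socs1, another suppressor of cytokine signalling, was at 1.34 to 2.98 CPM in WT and 2.28 to 3.12 CPM in T2F3 (adjusted p = 0.956). Stat5a itself was at 170.2, 187.6 and 136.8 CPM in WT and 122.4, 104.4 and 91.7 CPM in T2F3 (adjusted p = 0.149), and Ccnd3, the gene of cyclin D3, was at 93.4 to 169 CPM against 65.9 to 80.8 CPM (adjusted p = 0.125).

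MAPK signalling, the other main arm below FLT3, is read out by its own feedback phosphatases. None of 27 MAPK targets and feedback inhibitors passed, although 23 were below 0 and the median log2 change was -0.81. At an unadjusted p under 0.05 there were 11, against 2176 of the 16042 genes tested. DESeq2 and limma-voom each called 4 that fell, and limma-voom called 1 that rose. The animal fit called 1 that fell, Dusp6 (adjusted p = 0.0485). In the fits with a library left out, 1 rose without WT GMP 1 and 1 fell without WT GMP 3. Dusp6, an ERK phosphatase, was at 71.2, 82.4 and 67.1 CPM in WT and 1.77, 5.75 and 25.4 CPM in T2F3 (adjusted p = 0.192), with T2F3 GMP 3 well above the other mutant libraries. Dusp5, another, was at 0, 10.4 and 6.33 CPM in WT and 40.9, 50.2 and 44.8 CPM in T2F3 (adjusted p = 0.104). Of 32 genes of FLT3 ligand, its adaptors and kinases, 1 rose (Flt3 itself) and 0 fell, and 4 had an unadjusted p under 0.05.

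Mast cell, basophil and eosinophil genes had the lowest median change of the lists. Of 22 tested, 6 fell, against 0.461% of all genes, and 0 rose. All 22 had a change below 0 and the median log2 change was -3.64. In 17 of the 22 the T2F3 libraries lay below all WT libraries, against 9.72% of all genes. As with the other lists, earlier results of these data were known when it was drawn up. Its counts and rank are no separate support for a change in such genes. Summed over the list, the level was 1444, 1525 and 2240 CPM in WT and 122, 242 and 141 CPM in T2F3. The animal fit called 12 that fell. In bulk RNA, fewer cells of a type and less RNA per cell cannot be told apart. Gata2, a transcription factor needed for stem cells and for mast cell and basophil fates, fell from 69.2, 95.8 and 134.7 CPM to 6.39, 4.79 and 5.06 CPM (18.5-fold, adjusted p = 4.54e-05). Prss34, a protease of basophils and mast cells, fell from 372, 381 and 526 CPM to 10.1, 19.9 and 4.99 CPM (36.5-fold, or 57.0-fold without T2F3 GMP 2, adjusted p = 0.00103). Ms4a2, the beta chain of the high-affinity IgE receptor, fell from 53.2, 47.3 and 77.0 CPM to 1.65, 2.75 and 3.13 CPM (23.4-fold, adjusted p = 0.00567). For these 3 genes the T2F3 libraries stayed far under the lowest WT library.

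Slc18a2, the vesicular transporter that loads histamine and other amines, fell from 14.8, 12.5 and 19.99 CPM to 0.570, 0.854 and 0.773 CPM (21.1-fold, adjusted p = 0.00332). Hdc, the enzyme that makes histamine, was held in the GMP list and fell from 683.7, 316.4 and 346.3 CPM to 87.2, 40.6 and 71.0 CPM (6.78-fold, adjusted p = 0.00332). Mcpt8, a basophil protease, fell from 101.7, 119.3 and 111.3 CPM to 21.2, 24.2 and 28.9 CPM (4.47-fold, adjusted p = 0.0323). Csf1, the macrophage growth factor, fell from 18.9, 21.3 and 29.5 CPM to 5.89, 6.50 and 5.37 CPM (3.92-fold, adjusted p = 0.0342). Both of these calls were lost without any 1 of WT GMP 2 or 3 or T2F3 GMP 1, 2 or 3, the call of Mcpt8 also without WT GMP 1, WT LSK 2 or T2F3 LSK 1 and that of Csf1 also without WT LSK 3 or T2F3 LSK 2 (adjusted p from 0.051 to 0.157 for Mcpt8 and from 0.0526 to 0.152 for Csf1). Members that did not pass include some of the lineages' defining genes, named here after their values were seen. Cpa3, the mast cell carboxypeptidase, was at 93.6, 103.6 and 174.2 CPM in WT and 6.77, 6.09 and 7.89 CPM in T2F3 (adjusted p = 0.0598). Epx, the eosinophil peroxidase, was at 209.3, 262 and 263.9 CPM against 1.203, 24.1 and 4.10 CPM (adjusted p = 0.0899), and Prg2, the major basic protein, at 342.2, 320.4 and 678 CPM against 6.46, 70.0 and 28.1 CPM (adjusted p = 0.131). T2F3 GMP 2 held the most of both eosinophil transcripts among the mutants. Fcer1a, the alpha chain of the IgE receptor, was at 24.9, 11.4 and 18.3 CPM against 0.443, 0.743 and 0.116 CPM (adjusted p = 0.0599). The animal fit called these 4, with an adjusted p of 0.0308 for Cpa3, 0.00752 for Epx and Prg2 and 0.0381 for Fcer1a.

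The 250 bases upstream of the start sites of 3 of the genes that fell show where the motif AGATAA, the core that GATA factors bind, lies. The capitals mark AGATAA or its complement TTATCT, and the sequences are RefSeq's for build GRCm38.p6, printed 5′ to 3′ on the gene's strand.
Prss34, chr17:25298144-25298393, plus strand: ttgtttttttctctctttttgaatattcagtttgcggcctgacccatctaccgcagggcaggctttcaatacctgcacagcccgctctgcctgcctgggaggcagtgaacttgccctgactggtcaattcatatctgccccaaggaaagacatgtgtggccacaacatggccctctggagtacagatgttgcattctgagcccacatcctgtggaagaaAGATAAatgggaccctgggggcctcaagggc
Ms4a2, chr19:11623720-11623969, minus strand: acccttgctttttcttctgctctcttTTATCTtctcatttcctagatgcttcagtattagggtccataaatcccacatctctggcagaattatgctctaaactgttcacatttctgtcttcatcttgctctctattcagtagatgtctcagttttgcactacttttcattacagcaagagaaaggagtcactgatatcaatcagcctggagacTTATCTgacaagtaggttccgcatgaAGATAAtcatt
Slc18a2, chr19:59260628-59260877, plus strand: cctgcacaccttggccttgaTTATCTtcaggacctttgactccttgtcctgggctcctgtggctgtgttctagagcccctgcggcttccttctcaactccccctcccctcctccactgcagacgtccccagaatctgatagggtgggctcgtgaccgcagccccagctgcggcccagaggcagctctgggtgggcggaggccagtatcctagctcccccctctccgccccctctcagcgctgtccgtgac
The motif starts at -31 from the start site in Prss34, at -224, -37 and -11 in Ms4a2 and at -230 in Slc18a2. Either strand of the motif occurred in this window in 7.59% of the 10190 tested genes with an entry, in 9 of the 61 genes that fell (14.8%), in 4 of the 76 that rose (5.26%) and in 8 of 20 mast cell, basophil and eosinophil genes (40.0%). A match describes letters in the window and is no evidence of binding. The STAT motif TTCNNNGAA occurred in 10 of the 76 genes that rose with an entry (13.2%), in 6 of the 61 that fell (9.84%) and in 7.37% of tested genes. Of the STAT5 targets, 2 of 20 with an entry held it (10.0%), Socs3 and Bcl6, neither of them called, while Cish and Pim1 did not hold it in this window and Socs2 had no entry. Of the genes called in every fit, Chdh, which fell, and Gbp7, which rose, hold it, and Gbp7 is printed here, with the motif at -106 and -87 in capitals.
Gbp7, chr3:142530086-142530335, plus strand: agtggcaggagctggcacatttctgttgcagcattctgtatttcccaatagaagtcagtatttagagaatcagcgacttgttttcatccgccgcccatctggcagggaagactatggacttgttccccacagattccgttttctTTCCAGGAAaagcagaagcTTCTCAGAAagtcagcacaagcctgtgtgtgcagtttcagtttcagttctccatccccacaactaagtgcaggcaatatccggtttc

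Of 28 erythroid genes 6 fell, against 0.461% of all genes, and 0 rose. Of the 28, 27 were below 0 and the median log2 change was -2.66. None of the 28 passed in the animal fit, in which the adjusted p was 0.139 for Gfi1b, 0.234 for Gata1, 0.0607 for Zfpm1, 0.112 for Car2, 0.101 for Aqp1 and 0.175 for Car1. The summed level was 424, 457 and 435 CPM in WT and 316, 277 and 313 CPM in T2F3. Gfi1b, a repressor needed for red cell and platelet lineages, fell from 4.76, 1.99 and 7.38 CPM to 0, 0.186 and 0.155 CPM (35.5-fold, adjusted p = 0.00751). Gata1, the master factor of these lineages and of mast cells and eosinophils, was at 1.43, 8.89 and 13.1 CPM in WT and 0.127, 0.371 and 1.16 CPM in T2F3 (13.5-fold, adjusted p = 0.0431). WT GMP 1 lay close to T2F3 GMP 3, so that the genotypes came near each other, and the fold was 8.95 without WT GMP 3 and 28.8 without T2F3 GMP 3. Zfpm1, the cofactor of GATA1, fell from 38.6, 32.1 and 50.3 CPM to 13.6, 11.3 and 9.35 CPM (3.53-fold, adjusted p = 0.00935). Car2, a carbonic anhydrase, fell from 25.3, 22.8 and 26.6 CPM to 5.51, 4.86 and 8.002 CPM (4.05-fold, adjusted p = 0.0135), and Aqp1, a water channel of red cells, fell 10.7-fold (adjusted p = 0.0261). Car1, another carbonic anhydrase, was at 1.31, 6.89 and 10.4 CPM in WT, against 0, 0.297 and 0 CPM in T2F3 (adjusted p = 0.0413). The count of erythroid genes that fell was 3 without WT GMP 2, WT GMP 3, T2F3 GMP 1 or WT LSK 3 and 1 without T2F3 GMP 2. Among the calls, that of Gata1 was lost without WT GMP 2 or 3, T2F3 GMP 1 or 2, WT LSK 2 or 3 or T2F3 LSK 1 or 2 (0.0624 to 0.206), and that of Car1 without WT GMP 2 or 3, any T2F3 GMP library or WT LSK 2 or 3 (0.059 to 0.136). Car2 was lost without T2F3 GMP 1 or 2 (0.0708 and 0.086), Zfpm1 without T2F3 GMP 2 (0.0556), and Aqp1 without WT GMP 2 or 3, T2F3 GMP 2 or 3 or WT LSK 3 (0.0523 to 0.106), all as adjusted p.

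Of 20 megakaryocyte and platelet genes, 2 fell, none rose, 14 were below 0 and the median log2 change was -1.12. DESeq2 and limma-voom with quality weights called 9 and 7 that fell and 0 that rose. Itga2b, integrin alpha-IIb of platelets and their precursors, fell from 56.8, 75.2 and 91.0 CPM to 2.03, 5.61 and 6.88 CPM (15.2-fold, adjusted p = 0.00121). Mmrn1, multimerin of platelets, was at 1.91, 0.997 and 3.14 CPM in WT, against 0 in each T2F3 library, at least 14.5-fold lower when 0 is set to 3 counts in each library (adjusted p = 0.00518). Without WT GMP 1 or without T2F3 LSK 3 the number that fell was 5. Epor, the receptor of erythropoietin, was low in WT GMP, at 0.0595, 2.04 and 2.15 CPM, and did not pass (adjusted p = 0.0598).

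Most genes of the neutrophil and azurophil granule program of GMP did not pass. Of 29 GMP and azurophil granule genes 2 fell, Hdc and Csf3r, 0 rose, and 23 were below 0 with a median log2 change of -0.88. An unadjusted p under 0.05 was found for 16 of the 29, against 2176 of the 16042 genes tested. In 11 of the 29 the T2F3 libraries lay below all WT libraries, against 9.72% of all genes, and in 4 above, against 12.0%. DESeq2 called 6 that fell and limma-voom 8, and each called 1 that rose. The summed level was 62110, 41020 and 26140 CPM in WT and 25230, 13300 and 22060 CPM in T2F3, so that WT GMP 3 lay only just above T2F3 GMP 1. Csf3r, the receptor of granulocyte colony-stimulating factor, fell from 167.2, 135.4 and 160.2 CPM to 56.0, 41.8 and 61.1 CPM (2.91-fold, adjusted p = 0.0107), a call lost without T2F3 GMP 2 (0.0716), where the count was 1. Mpo, the myeloperoxidase of azurophil granules, was at 35190, 25150 and 15150 CPM in WT GMP and 12600, 6707 and 11020 CPM in the mutant (log2 change -1.32 ± 0.42, adjusted p = 0.17). Elane, neutrophil elastase, was at 10070, 5649 and 2760 CPM against 3580, 1109 and 2913 CPM and overlapped between genotypes (adjusted p = 0.391). The spread between WT libraries was 2.32-fold for Mpo and 3.65-fold for Elane, beside differences between genotypes of 2.49-fold and 2.43-fold. Cebpa, a factor required for GMP to form, was at 308.2, 376.2 and 299.8 CPM against 196.4, 146.5 and 248.3 CPM (adjusted p = 0.186). Cebpe, of later granule formation, was at 99.0, 63.7 and 30.4 CPM against 11.1, 5.20 and 26.4 CPM (adjusted p = 0.259). Gfi1, a repressor needed for the neutrophil fate, was at 181.6, 92.5 and 78.8 CPM against 29.4, 23.0 and 57.6 CPM (adjusted p = 0.08). Spi1, encoding PU.1, was at 176.5 to 339.9 CPM against 166.2 to 191.4 CPM (adjusted p = 0.442). No neutrophil maturation gene of 23 passed, although 19 were below 0 and the median log2 change was -1.125. In 8 of the 23 the T2F3 libraries lay below all WT libraries, against 9.72% of all genes, and in 2 above, against 12.0%. At an unadjusted p under 0.05 there were 8, DESeq2 called 1 that rose, limma-voom called 1 that rose and 5 that fell, and 1 rose without WT LSK 1.

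**Figure D2:**
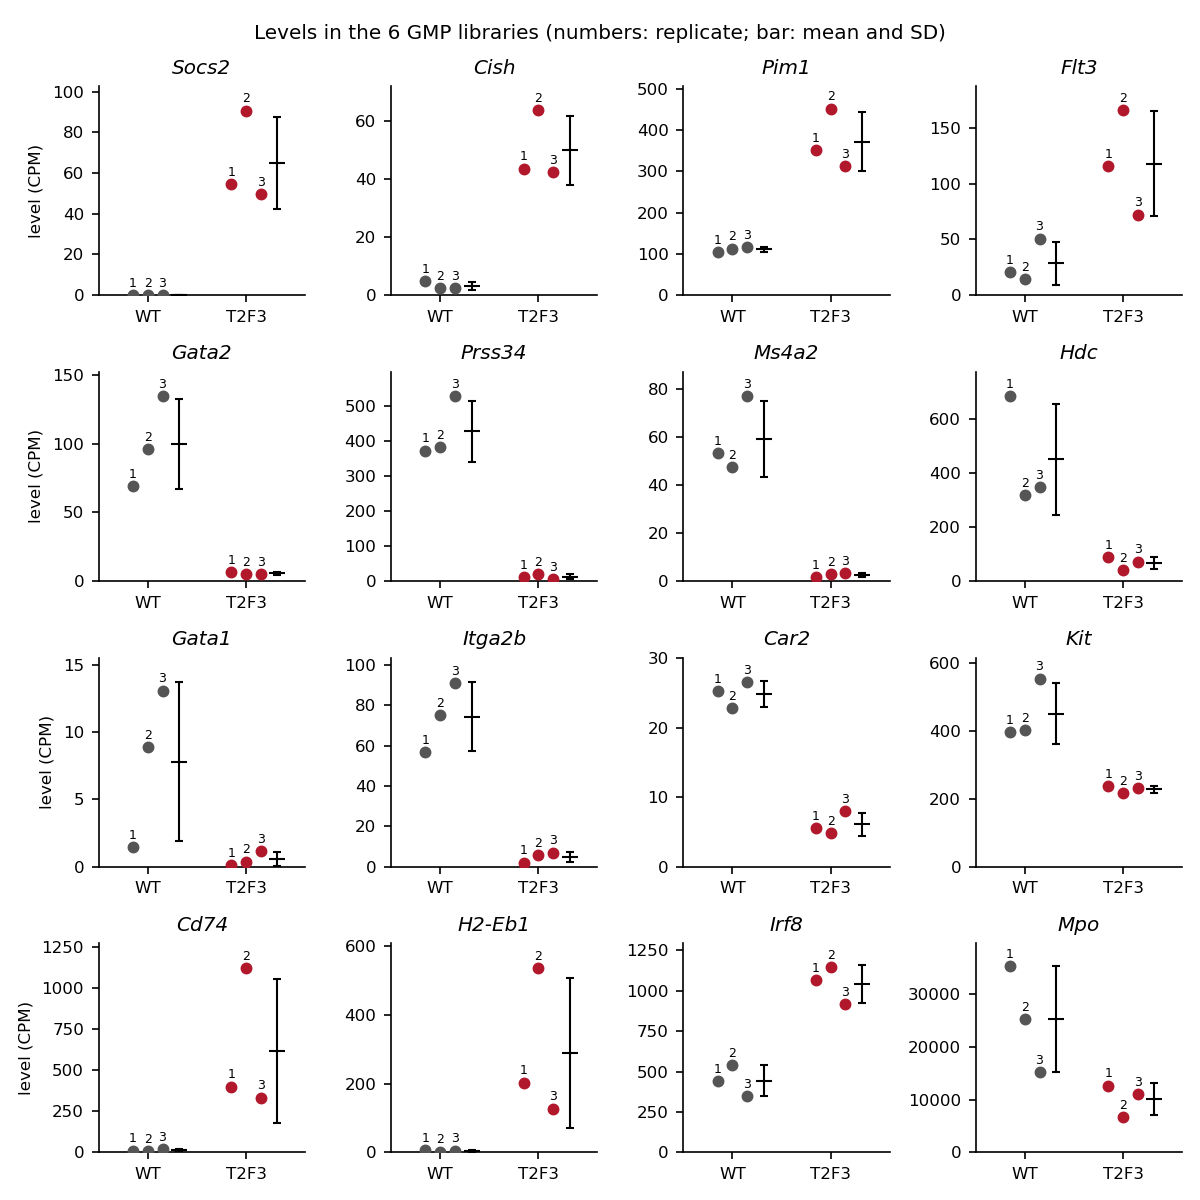
Level (CPM, linear axes from 0) of 16 genes in the 3 WT (grey) and 3 T2F3 (red) GMP libraries, numbered by replicate, with the mean and SD beside them. Socs2, Cish and Pim1 lie high in all T2F3 libraries and Gata2, Prss34 and Ms4a2 low, T2F3 GMP 2 has the highest level of Cd74 (1122 CPM) and H2-Eb1 (535.6 CPM), and the WT libraries of Mpo range from 15150 to 35190 CPM.

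Cd74, H2-Eb1, Ciita, H2-Ab1 and H2-Aa, genes of antigen presentation, rose in T2F3 GMP. MHC class II molecules present peptides to CD4 T cells, and Ciita encodes the factor that switches them on. Of 11 class II genes 5 rose, against 0.679% of all genes, all 11 were above 0, and the median log2 change was 3.11. In 8 of the 11 the T2F3 libraries lay above all WT libraries, against 12.0% of all genes. The summed level was 226, 144 and 189 CPM in WT and 1566, 3453 and 1012 CPM in T2F3, highest in T2F3 GMP 2. Cd74, the invariant chain, rose from 10.0, 9.32 and 20.3 CPM to 399.4, 1122 and 333.3 CPM (46.8-fold, adjusted p = 0.0153). H2-Eb1 rose from 6.49, 1.95 and 5.17 CPM to 202.1, 535.6 and 127.4 CPM (64.0-fold, adjusted p = 0.0186). Ciita rose from 1.37, 0.173 and 1.74 CPM to 37.9, 99.1 and 23.6 CPM (50.2-fold, adjusted p = 0.0264), and H2-Ab1 and H2-Aa, a class II chain pair, rose 16.8-fold and 30.5-fold (adjusted p = 0.0418 and 0.0462). The order of the mutant libraries, 2 above 1 above 3, was the same for these 5 genes, and without T2F3 GMP 2 their log2 changes were 4.79, 5.19, 4.84, 3.46 and 4.21, against 5.55, 6.00, 5.65, 4.07 and 4.93 in all libraries. H2-DMa, a chaperone of peptide loading, was at 48.2 to 90.3 CPM against 111.6 to 160.6 CPM (adjusted p = 0.212). None of the 11 passed in the animal fit, with adjusted p of 0.0866, 0.227, 0.318, 0.0912 and 0.17 for the 5. None passed either without WT GMP 1 or without WT GMP 2, 1 without WT GMP 3 or T2F3 GMP 2, 2 without T2F3 GMP 1 and 3 without WT LSK 2, T2F3 LSK 1 or T2F3 LSK 2. The adjusted p of Cd74 was 0.0678 and 0.082 without WT GMP 1 and 2, and where the other 4 lost their call it was 0.0538 to 0.172.

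Of 29 dendritic cell genes tested, 3 rose (Gcsam, Fscn1 and Itgae), against 0.679% of all genes, and 0 fell. Of the 29, 25 were above 0 and the median log2 change was 3.97. This list too was drawn up with earlier results of these data known, and Gcsam and Fscn1 are among the 12 largest rises. The summed level was 874, 741 and 872 CPM in WT and 1362, 2254 and 1179 CPM in T2F3, again highest in T2F3 GMP 2. The part of such cells in the class II change was not tested. Gcsam, a signalling adaptor, was at 0 in each WT library and at 6.08, 16.8 and 4.75 CPM in T2F3, at least 57.2-fold higher (adjusted p = 0.00238). Fscn1, the actin bundler of mature dendritic cells, was at 0 in WT, against 7.47, 6.61 and 1.00 CPM in T2F3, at least 31.2-fold higher (adjusted p = 0.00961). Itgae, encoding CD103, rose from 0, 0.130 and 0.756 CPM to 17.0, 77.2 and 32.8 CPM (145.2-fold, 527.9-fold without WT GMP 3 and 85.3-fold without T2F3 GMP 2, adjusted p = 0.0206), a call lost without WT GMP 1 or 2 or T2F3 GMP 2 (0.0603 to 0.108) and in the animal fit (0.311). The defining genes of conventional dendritic cells, named after their values were seen, were higher in every T2F3 library and did not pass. Irf8, a factor of monocyte and dendritic cell fate, was at 442.6, 538.6 and 347.6 CPM against 1064, 1144 and 915.9 CPM (2.35-fold, adjusted p = 0.347). Xcr1 was at 3.75, 0.737 and 0.174 CPM against 9.12, 46.7 and 16.3 CPM (adjusted p = 0.113), Clec9a at 0, 0.0867 and 3.89 CPM against 13.2, 51.7 and 11.6 CPM (adjusted p = 0.208), and Zbtb46 at 0.0595, 0.477 and 1.69 CPM against 11.2, 43.8 and 11.7 CPM (adjusted p = 0.0658). Without T2F3 LSK 3 the number of dendritic cell genes that rose was 6. Of 32 monocyte and macrophage genes 1 rose, against 0.679% of all genes, 25 were above 0 and 7 below. The summed level was 3253 to 3521 CPM in WT and 5672 to 7275 CPM in T2F3. Apoe, a member of the list, was lower, at 20.8, 17.3 and 26.8 CPM in WT and 1.27, 4.79 and 4.41 CPM in T2F3 (adjusted p = 0.102). Csf1r and Klf4, members named after their values were seen, overlapped between genotypes (adjusted p = 0.843 and 0.83). Mrc1, the macrophage mannose receptor, rose from 0.0595, 0.564 and 1.45 CPM to 33.0, 85.3 and 24.2 CPM (68.3-fold, 140.3-fold without WT GMP 3 and 41.1-fold without T2F3 GMP 2, adjusted p = 0.00971), a call lost without WT GMP 2 (0.0626) and in the animal fit (0.0862), which called 2 other genes of the list, S100a4 and S100a10 (0.0295 and 0.0353). The number of monocyte genes that rose was 3 without WT LSK 1, 2 without T2F3 LSK 1 and 4 without T2F3 LSK 3. Tlr3 and Tlr11, innate receptors of dendritic cells and macrophages, are on neither list and were named after their values were seen. They rose from at most 0.407 and 0.390 CPM in WT to 3.17, 36.1 and 10.1 CPM and 9.81, 31.3 and 9.24 CPM in T2F3 (adjusted p = 0.0446 and 0.0233). The call of Tlr11 was lost without any 1 of the WT GMP libraries or T2F3 GMP 2 (0.0687 to 0.0811), and Tlr3 was called only without WT LSK 1 or T2F3 LSK 3 (0.0519 to 0.169 otherwise). Neither passed in the animal fit (0.306 for Tlr3 and 0.36 for Tlr11).

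Of 32 genes tested on the list of adhesion and leukaemia-associated genes, 5 rose (Ccn3, Cp, Havcr2, Gdf10 and Itgb7), and 0 fell. Over all genes tested, 0.679% were called higher. The list was drawn up with earlier results of these data known, and Ccn3, Cp and Havcr2 are also among the 12 largest rises. Its count is therefore no separate support for a change in such genes. Ccn3, a secreted matricellular protein, was at 0 in each WT library and at 34.8, 36.9 and 27.6 CPM in T2F3, at least 205.5-fold higher (adjusted p = 4.54e-05). Cp, ceruloplasmin, the copper-carrying ferroxidase, rose from 0, 0.0867 and 0.116 CPM to 75.5, 74.3 and 44.1 CPM (adjusted p = 0.000376). Havcr2, which encodes TIM-3, a surface protein of leukaemic stem cells in human acute myeloid leukaemia, was at 0, 0.0433 and 0 CPM against 4.24, 14.03 and 5.76 CPM (adjusted p = 0.00971). In that gene WT held 1 count in all, and the ratio was 494 (95% counting interval 88.3 to 19550). Gdf10, which encodes a TGF-beta type ligand, was at 0 in WT, against 5.06, 5.12 and 0.889 CPM, at least 22.9-fold higher (adjusted p = 0.0186). The calls of Havcr2 and Gdf10 were lost without WT GMP 2 (0.0624 and 0.063), and that of Gdf10 also without T2F3 GMP 2 (0.0583). Itgb7, the integrin chain that pairs with CD103 and alpha 4, rose from 43.4, 41.7 and 61.1 CPM to 220.7, 260 and 184.2 CPM (4.55-fold, adjusted p = 0.024), a call lost without WT GMP 1 or 2 or T2F3 GMP 1 or 2 (0.073 to 0.113). Without WT GMP 2 there were 2 called in this list, without T2F3 GMP 2 there were 3, and in the animal fit 3, without Havcr2 (0.0818) and Gdf10 (0.0828).

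Of 35 stem cell and multipotency genes 1 rose and 2 fell (2 rose without WT GMP 1). Ifitm1, an interferon-induced membrane protein also found on early progenitors, rose from 8.22, 11.7 and 15.3 CPM to 287.7, 237.2 and 134.1 CPM (18.7-fold, adjusted p = 4.54e-05). Myct1 fell from 12.0, 4.77 and 8.43 CPM to 0.443, 0.965 and 1.12 CPM (9.61-fold, adjusted p = 0.008), and did not pass in the animal fit (0.141). Hlf, a stem cell transcription factor, fell 2.98-fold (adjusted p = 0.0378), and that call was lost in 7 of the 12 fits with a library left out, those without WT GMP 1, 2 or 3, T2F3 GMP 1 or 2, WT LSK 2 or T2F3 LSK 2 (0.0573 to 0.183), and in the animal fit (0.231). Thy1, a surface protein of T cells and early progenitors, rose from 2.26, 1.91 and 3.43 CPM to 42.6, 29.9 and 113.8 CPM (24.6-fold, or 14.3-fold without T2F3 GMP 3, adjusted p = 0.0016), the only 1 of 16 T cell and NK cell genes called, with an adjusted p of 0.0509 in the animal fit. Ets1, a lymphoid transcription factor, fell from 28.2, 36.6 and 36.7 CPM to 3.54, 4.05 and 7.73 CPM (6.60-fold, adjusted p = 0.0041), the only 1 of 25 early lymphoid and B lineage genes called. Of 34 cytokine and growth factor receptors 2 rose (Il10ra and Flt3) and 3 fell (Igf1r, Csf3r and Kit). The numbers were 4 that rose without T2F3 LSK 3, 0 that rose without WT GMP 1, WT GMP 2 or T2F3 GMP 2, 1 that rose without T2F3 GMP 1, WT LSK 2, WT LSK 3, T2F3 LSK 1 or T2F3 LSK 2, and 1 that fell without T2F3 GMP 2. Igf1r, the receptor of insulin-like growth factor 1, fell from 191.4, 210.1 and 234.9 CPM to 58.0, 51.7 and 76.8 CPM (3.41-fold, adjusted p = 0.00625). Grb10, an adaptor that restrains insulin and IGF receptors, fell from 24.0, 23.9 and 28.5 CPM to 0.9496, 1.89 and 1.35 CPM (adjusted p = 0.00875).

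Il10ra, the interleukin-10 receptor chain, rose from 13.9, 12.96 and 13.5 CPM to 44.6, 70.8 and 42.9 CPM (3.92-fold, adjusted p = 0.0188), a call lost without any 1 WT GMP library or T2F3 GMP 2 (0.0519 to 0.0968) and in the animal fit (0.0607). Of 45 myeloid fate transcription factors 3 fell, Gata2, Gata1 and Ikzf2, and 0 rose (14 had an unadjusted p under 0.05, and DESeq2 called 3 that rose and limma-voom 0). Without T2F3 GMP 1, 1 fell, and without T2F3 LSK 3, 1 rose. Ikzf2, encoding Helios, fell from 89.5, 61.5 and 128.8 CPM to 29.7, 32.5 and 18.3 CPM (3.48-fold, adjusted p = 0.0154). Its call was lost without T2F3 GMP 1 or 3 (0.0519 and 0.0552). Gata3, another factor of the same family, was at 0 to 0.130 CPM in WT and 0 to 0.503 CPM in T2F3 (adjusted p = 0.502). Of 40 interferon-stimulated genes 1 rose and 1 fell, with 35 above 0 and a median log2 change of 0.77, and 2 rose without WT GMP 3. Gbp7, an interferon-induced guanylate-binding protein, rose from 30.2, 29.9 and 35.6 CPM to 101.4, 200.1 and 174.4 CPM (4.97-fold, adjusted p = 0.00103). Ddx58, encoding the RNA sensor RIG-I, fell 3.10-fold (adjusted p = 0.0264), a call lost without WT GMP 1 or any 1 of the T2F3 GMP libraries (0.0674 to 0.11) and in the animal fit (0.129). Casp1, the inflammatory caspase, rose from 68.1, 48.5 and 38.9 CPM to 107, 131 and 102.7 CPM (2.19-fold, adjusted p = 0.0319), 1 of 26 NF-kB target and inflammation genes that rose, with 1 that fell (Csf1). Its call was lost without WT GMP 2 or 3, any 1 of the T2F3 GMP libraries or WT LSK 2 or 3 (0.0526 to 0.161).

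Among the other genes with large changes, Gpr141b and Snx22 were at 0 in WT, against 5.19, 29.0 and 13.5 CPM and 9.81, 26.7 and 3.67 CPM in T2F3, at least 98.7-fold and 83.2-fold higher (adjusted p = 0.0241 and 0.0212). Their calls were lost without WT GMP 1 or 2 or T2F3 GMP 2, that of Gpr141b also without WT GMP 3 and that of Snx22 also without WT LSK 2 (0.0533 to 0.0921 and 0.0512 to 0.0813), and neither passed in the animal fit (0.204 and 0.258). Tcrg-C1 rose from 0 in WT to 5.63, 10.4 and 16.7 CPM, at least 67.8-fold (adjusted p = 0.00542), and its reads can be split with near-identical copies. Xkr6, Stap2 and Mamdc2 rose from 1 to 2 counts in all of WT (adjusted p = 0.0176, 0.0107 and 0.0135), and their calls were lost without WT GMP 2 (0.0923, 0.0624 and 0.0718), those of Xkr6 and Mamdc2 also without WT GMP 1 (0.0715 and 0.0537) and in the animal fit (0.104 and 0.0883). Epb41l4b and Eps8, genes of the actin cytoskeleton named because every fit called them, rose from 5.597, 2.99 and 12.4 CPM to 110.9, 101.5 and 89.8 CPM and from 1.25, 1.73 and 3.84 CPM to 24.8, 34.0 and 35.7 CPM. Chdh, choline dehydrogenase of mitochondria, fell from 330.5, 375 and 376.9 CPM to 95.7, 68.2 and 121 CPM (3.80-fold, adjusted p = 0.00332). Spns2, the exporter of sphingosine 1-phosphate, fell from 37.4, 35.5 and 55.4 CPM to 6.20, 7.80 and 9.05 CPM (5.55-fold, adjusted p = 0.00279). Cdh1, encoding E-cadherin, fell 19.7-fold (adjusted p = 0.0191). Slc45a3, a solute carrier, fell from 15.1, 15.6 and 39.4 CPM to 0, 0.297 and 0.309 CPM (adjusted p = 0.0325). Both calls were lost without WT GMP 2 or any 1 T2F3 GMP library (0.0624 to 0.112 and, for Slc45a3, also without WT GMP 3 or WT LSK 2, 0.0532 to 0.152), and Slc45a3 did not pass in the animal fit (0.0713). Ces2g, a carboxylesterase, fell from 3.33, 4.90 and 6.80 CPM to 0, 0.854 and 0.0773 CPM (adjusted p = 0.049) and was called only without T2F3 GMP 2 or T2F3 LSK 3 (0.0505 to 0.132 otherwise), and it did not pass in the animal fit (0.0607).

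Lists on DNA methylation and on proliferation had few or no calls. Their counts at an unadjusted p under 0.05 stand beside 2176 of the 16042 genes tested. Of 30 DNA methylation and demethylation genes 0 passed, 2 had an unadjusted p under 0.05, and limma-voom called 1 that fell and DESeq2 0. Dnmt1, the maintenance methyltransferase, was at 1001 to 1124 CPM against 867.2 to 994.5 CPM (adjusted p = 0.742), Dnmt3a at 89.0 to 124.8 CPM against 70.1 to 94.4 CPM (adjusted p = 0.538), and Tet3 at 329.6 to 539.5 CPM against 324.2 to 431.1 CPM (adjusted p = 0.819). Of 32 DNA replication genes 0 passed and 5 had an unadjusted p under 0.05, and DESeq2 and limma-voom each called 2 that fell. Of 30 mitosis genes 0 passed and 3 had an unadjusted p under 0.05, with 1 that rose by limma-voom and 0 by DESeq2. Mki67, a marker of cycling cells, was at 640.2, 791.4 and 1028 CPM in WT and 867.9, 1643 and 1191 CPM in T2F3 (adjusted p = 0.415), with overlap. Of 19 Hox and TALE homeobox genes 0 passed, 3 had an unadjusted p under 0.05 and DESeq2 called 1 that fell and limma-voom 0. Of 25 apoptosis genes 0 passed, 13 had an unadjusted p under 0.05, and DESeq2 called 3 that rose and 1 that fell and limma-voom 1 and 1. The median log2 change of the 25 was 0.59. The T2F3 libraries lay above all WT libraries in 11 and below them in 2, against 12.0% and 9.72% of all genes. Without WT GMP 3, 1 apoptosis gene and 1 DNA replication gene fell. Of 20 CDK inhibitors and G1 regulators 0 passed (2 at an unadjusted p under 0.05, 1 that fell by each other tool), and of 27 MYC target and nucleolar genes 0 passed (7 at an unadjusted p under 0.05, DESeq2 called 1 in each direction and limma-voom 3 that fell). Of 9 stroma and endothelium genes 0 passed (2 at an unadjusted p under 0.05, 1 that fell by each other tool). Of 17 heat shock and immediate stress genes 0 passed, 1 had an unadjusted p under 0.05, and DESeq2 and limma-voom called 0.

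**Figure D3:**
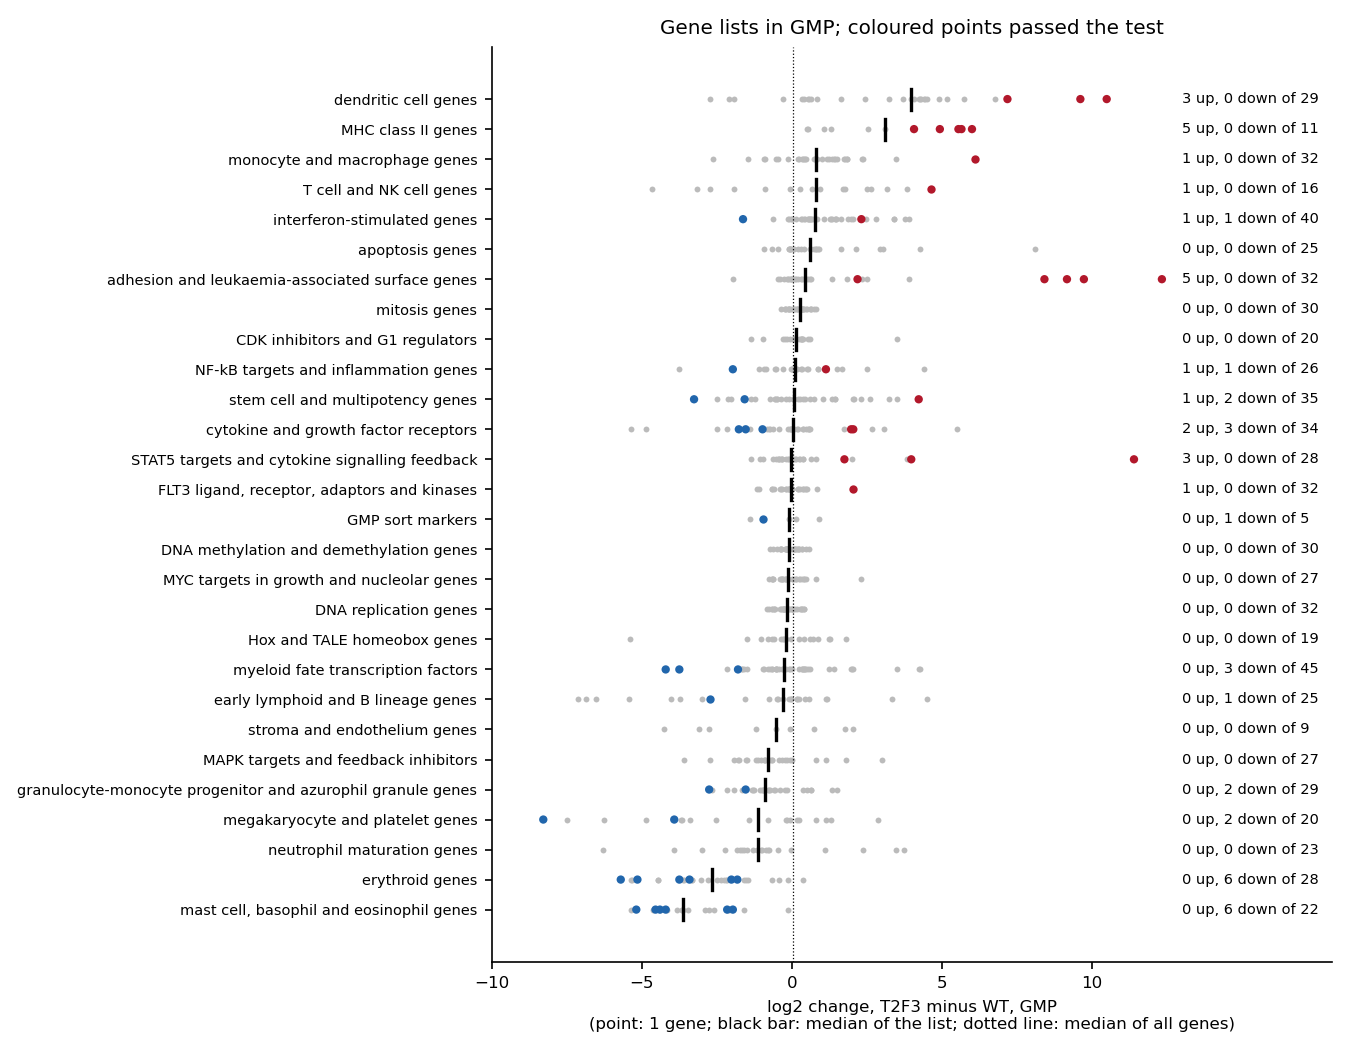
Fitted log2 change in GMP (x axis, T2F3 minus WT) of each tested member of 28 gene lists; red and blue points passed the test, black bars are list medians and the dotted line is the median of all genes (0.02). Mast cell, basophil and eosinophil genes lie lowest (median -3.64, 6 of 22 fell) and dendritic cell genes highest (median 3.97, 3 of 29 rose). The lists were drawn up with earlier results of these data known, so this order is no separate support for either change.

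The effect in GMP was set against that in LSK, in which 834 genes (5.2%) were called, to see where it differs. Of the 183 genes called in GMP, 60 also rose and 47 also fell in LSK, 58.5% of the GMP calls and 12.8% of the LSK calls. For 2 genes the called directions were opposite, Mcpt8 and Gprc5b. Gprc5b, an orphan receptor, was at 0.639 to 0.655 CPM in WT GMP and 1.35 to 6.38 CPM in T2F3 GMP, and at 25.4 to 29.9 CPM in WT and 5.39 to 7.44 CPM in T2F3 LSK, and its difference did not pass (4.65 ± 0.71 in log2, adjusted p = 0.052). Its GMP call was lost in 8 of the 12 fits with a library left out (0.0512 to 0.152), those without any 1 WT GMP library, T2F3 GMP 1 or 2, WT LSK 2 or 3 or T2F3 LSK 2, and in the animal fit (0.218). Tested as a difference between the effects, 4 genes passed (0.0249%), all with the smaller or lower effect in GMP, and 1518 had an unadjusted p under 0.05. A GMP call without an LSK call is thus no sign of a difference. In LSK, Mcpt8 had 1.45, 4.09 and 7.39 CPM in the WT and 23.8, 15.3 and 32.04 CPM in the T2F3 libraries, so that it rose there and fell in GMP (difference in log2 change -4.63 ± 0.62, adjusted p = 0.0389). Enah, an actin regulator, rose in both, from 1.73, 2.56 and 1.51 CPM to 17.4, 23.5 and 24.9 CPM in GMP (11.3-fold, adjusted p = 0.000952) and from 0.264, 0.336 and 0.148 CPM to 38.2, 45.6 and 73.9 CPM in LSK (difference -4.16 ± 0.55, adjusted p = 0.0389). Sema4a and Cers6 rose in LSK alone by the test, with differences of -3.09 and -1.86 (adjusted p = 0.047 for both). Of the 12 fits with a library left out, those of Enah, Sema4a and Cers6 were called only without WT GMP 3 and that of Mcpt8 only without WT GMP 3, WT LSK 1 or WT LSK 3, with adjusted p of 0.0519 to 0.166 in the others. The animal fit kept the differences of Mcpt8 and Cers6 (0.0089 for both) and not those of Enah (0.127) and Sema4a (0.0617). The difference for Flt3, higher in T2F3 GMP and at 187.5 to 329.4 CPM in T2F3 against 373.8 to 462.3 CPM in WT LSK, did not pass (2.76 ± 0.59 in log2, adjusted p = 0.163), and neither did that of Socs2 (4.86 ± 0.78 in log2, adjusted p = 0.0611), which rose in both populations. Those of Gata2 (adjusted p = 0.42), Cd74 (0.933) and Kit (0.466) did not pass either.

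**Figure D4:**
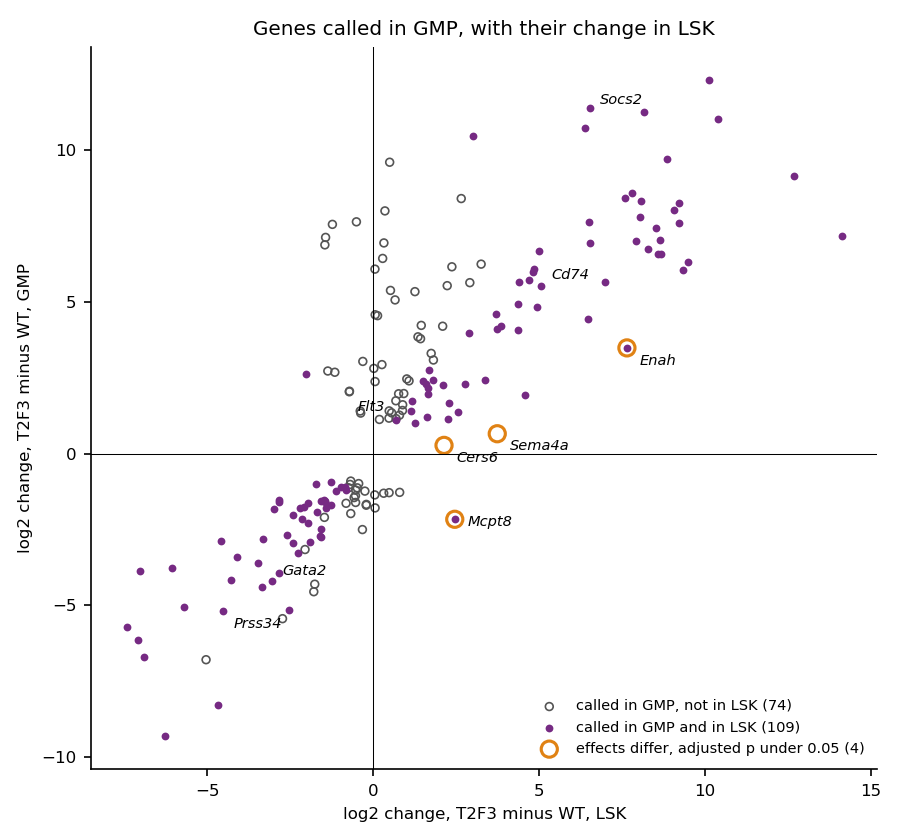
Log2 change (T2F3 minus WT) of the 183 genes called in GMP (y axis) against their change in LSK (x axis); filled points are also called in LSK (109), open ones are not (74), and orange rings mark the 4 genes whose effects differ by the interaction test, of which Sema4a and Cers6 are not among the 183 and are drawn as rings alone. Mcpt8 lies in the lower right quadrant, below 0 in GMP and above 0 in LSK.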

How the data were processed

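The authors deposited 1 table of raw gene counts for all 12 libraries, with no normalization. Per the submitters' processing notes, cutadapt 1.2rc2, TopHat, TopHat2 2, BWA 0.5.9, Picard and HTSeq were used with the mm9 build. The order and settings of these tools, strand included, were not given in the sources used here. Libraries came from 100 ng of RNA depleted of ribosomal RNA (by RiboMinus, before an Ion Total kit, per the labels' protocols), so small noncoding RNA takes part of each library. Of 21497 entries, 366 were at 0 in every library and 19939 identifiers were matched to GENCODE vM21, which is of another build, so only the printed promoters carry coordinates.

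Genes were kept by filterByExpr of edgeR (minimum count 10), scaled by TMM and fitted with 4 group means over all 12 libraries (8 residual degrees of freedom) by the quasi-likelihood F-test (edgeR 4.0.16, R 4.3.3), with Benjamini-Hochberg adjustment. DESeq2 1.42.0 and limma 3.58.1 were alternatives. Tested on counts simulated for T2F3 against WT GMP (15560 genes), the fit found 10 of 100 true 2-fold changes and 56 of 100 true 4-fold changes, none with a wrong sign, and made 1 false call. The simulated libraries were independent, with no correlation within an animal and no effect of the library code, and no gene at the lowest levels was changed. The simulation therefore does not give the share of false calls in the real libraries. A fold against a group at 0 is a lower bound at a floor of 3 counts per library, and intervals and floors cover counting error only. Nothing in the labels says how replicates relate beyond their numbers, so the p-values rest on the spread among these libraries, which may be technical.

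Named genes were fixed genes of the gate and genotype (Gata1, Gata2, Gata3, Kit, Cd34, Ly6a, Fcgr3, Tet2 and Flt3), the 12 largest rises and falls among called genes that reached 5 CPM as a group mean and did not overlap, up to 4 members of each list by p among those reaching 1 CPM, and the genes with the smallest p for the difference. The members and lists were chosen with earlier results of these data known, so list counts, medians and ranks are no separate support. Others are named as chosen after their values were seen. Some genes are not reported here. Title stems shared by an LSK and a GMP library were read as the animal. Deviations from the group means correlated at 0.11 to 0.48 in the 6 same-animal pairs. They were 0.11, 0.11 and 0.16 in WT and 0.36, 0.34 and 0.48 in T2F3. Libraries of different animals reached 0.22 (WT GMP 1 and T2F3 LSK 1), so the correlations do not settle the pairing in WT, which rests on the titles. A limma-voom fit with the animal as a random effect is an alternative.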

Additional observations from a re-analysis of the deposited data

Results flagged for a closer look

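The effect of the genotype differed between GMP and LSK for 4 genes by the interaction test of edgeR. The difference in log2 change was -4.16 for Enah (adjusted p = 0.0389), -4.63 for Mcpt8 (adjusted p = 0.0389), -3.09 for Sema4a (adjusted p = 0.047) and -1.86 for Cers6 (adjusted p = 0.047). Sema4a, a semaphorin, was at 62.2, 44.5 and 35.7 CPM in WT GMP and 57.0, 76.3 and 91.6 CPM in T2F3 GMP, against 2.96, 4.20 and 6.28 CPM in WT LSK and 52.8, 77.9 and 49.4 CPM in T2F3 LSK. Cers6, a ceramide synthase, was at 212.3, 239.1 and 209 CPM in WT GMP and 258.3, 230.4 and 311.5 CPM in T2F3 GMP, against 49.2, 53.5 and 48.4 CPM in WT LSK and 182.2, 228.3 and 256.3 CPM in T2F3 LSK. For both, the WT GMP level lay above the WT LSK level and near that of the T2F3 LSK libraries. The 4 differences kept their sign in every fit with a library left out. Sema4a and Cers6 were called only without WT GMP 3, with an adjusted p of 0.0519 to 0.166 in the other fits.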

How the results depend on the processing

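Counts of genes higher and lower in T2F3 GMP were 109 and 74. They were 108 and 78 with RLE size factors, 113 and 96 with a filter of 5 CPM in 3 libraries, 76 and 48 in only the 6 GMP libraries, 21 and 18 with a term for the library code, 57 and 82 with the animal as a random effect in limma-voom, 359 and 473 with limma-voom with quality weights and 454 and 335 with DESeq2, and 110 and 84 without both WT replicate 1 libraries and 36 and 24 without both T2F3 replicate 1 libraries. With single libraries left out the counts ran from 26 to 154 higher and from 24 to 96 lower. The cause was not tested. The report gives each call of a named gene that ended in limma-voom with the animal as a random effect. In only the 6 GMP libraries, 91 of the 183 calls were kept. Among the named genes, Flt3, Kit, Gata1, Gfi1b, Car1, Aqp1, Mmrn1, Myct1 and Hlf lost their call there. Fscn1, Ikzf2, Ddx58, Casp1, Gdf10, Tlr3, Ces2g and Gprc5b lost it too (adjusted p of the F-test from 0.056 to 0.204 over these genes).

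Genes with a higher effect in GMP than in LSK numbered 0, and 2 with RLE size factors, no filter, the 5 CPM filter or the replicate block, 1 with library sizes that leave out 4 classes of abundant transcripts (mitochondrial, histone, ribosomal protein, small RNA), 3 with the animal as a random effect or small RNA share as covariate, 12 with limma-voom with quality weights and 116 with DESeq2. Genes with a lower effect numbered 4, and 0 with the library code, 7 with the small RNA covariate, 11 with limma-voom with quality weights, 74 with DESeq2, 1 without both WT replicate 1 libraries and 0 without both T2F3 replicate 1 libraries. With single libraries left out they ran from 0 to 4 and from 0 to 6.

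Shared replicate numbers of WT and T2F3 did not pair the GMP samples throughout. Deviations from the group means of same-numbered libraries correlated at 0.19, 0.03 and -0.02, and WT GMP 2 and WT GMP 3 correlated more with another number. With the replicate block 99 genes were higher and 86 lower, and 21 and 22 with the replicate block in only the 6 GMP libraries.

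Uncalled changes that reversed sign were Cd34 (0.025 with limma-voom with quality weights), Pecam1 (0.061 with limma-voom with quality weights, 0.074 without both T2F3 replicate 1 libraries, and -0.163 to 0.066 with single libraries left out), Egr1 (-2.38 to 0.25 with single libraries left out) and Tet1 (-0.20 to 0.15 with single libraries left out), all as log2. Depth limits genes near 0: a count of 0 allows 0.111 to 0.190 CPM in a GMP library.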
